A study of Mus musculus with 8 samples.

Results

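The IL-1 and IL-18 receptor family of CD4 T cells was followed through 8 genes, chosen by name: the receptors Il1r1, Il1r2, Il1rl1 and Il18r1, the partner chains Il1rap and Il18rap, the antagonist Il1rn and the inhibitory receptor Sigirr. These are 8 of the 29924 gene names on the array, and 7 of the 15764 genes bright enough to be tested. Il1rn was the one left out. Each gene is given by its brightest probe, and its level is the normalized processed signal of that probe in relative units (RU), with 20 RU as the floor.

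RNA came from CD4 T cells sorted from pooled peripheral lymph nodes (pLN) of B6.Cg-Foxp3<tm1Mal> reporter mice, in which cells that express Foxp3, the lineage factor of regulatory T cells, carry EGFP. All mice, 8 to 15 per pool and 8 to 14 weeks old, had been immunized subcutaneously with KLH, a carrier protein, in alum, so the naïve cells too came from immunized nodes. The study used females and males without giving the sex of each pool, and other passages of the paper give other ranges for age and pool size. Among DAPI- B220- CD4+ cells, the gates were GFP- PD1- GL7- for naïve CD4 T cells, GFP- PD1hi GL7+ for TFH cells (follicular helpers of germinal center B cells), GFP+ PD1- GL7- for Treg cells, and GFP+ PD1hi GL7+/- for TFR cells (follicular regulatory cells). Each of the 4 cell types was measured once at d12 and once at d25 after immunization, with 25 ng of RNA on 1 single-color array. The TFR gate took GL7- cells as well, which the TFH gate left out.

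The receptors of this family carry the IL-1, IL-18 and IL-33 signals that myeloid and barrier cells send to lymphocytes. A binding chain (Il1r1, Il1rl1, Il18r1) takes up the cytokine, a second chain (Il1rap or Il18rap) joins it, and their cytoplasmic TIR domains recruit MyD88 and IRAK kinases. Several members restrain the signal: Il1r2 binds IL-1 without a TIR domain and acts as a decoy, Il1rn encodes the IL-1 receptor antagonist, and Sigirr is a single-Ig receptor that dampens TIR signaling.

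Sequences are shown for Il1r2, the member with the widest range of signal over the 8 arrays, and for a second probe of Il18r1 that served as a check. The Il1r2 probe lies on the plus strand of chr1:40180014-40180073 and the Il18r1 check probe on that of chr1:40537851-40537910, both in build NCBI37 as the array files give it.
Il1r2 probe: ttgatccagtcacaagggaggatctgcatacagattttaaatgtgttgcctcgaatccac
Il18r1 check probe: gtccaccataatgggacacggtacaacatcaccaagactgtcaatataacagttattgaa

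In RefSeq (GRCm38.p6) the annotated start of Il1r2 faces the start of Gm16894, a long noncoding RNA gene on the opposite strand, and 241 bases lie between both starts. This stretch, chr1:40085852-40086092, is printed on the plus strand, which is the Il1r2 strand, because Gm16894 ranked among the genes most like Il1r2 over the 8 arrays (values further on). Capitals mark CACGTG, an E-box that reads the same on both strands.
Between the starts of Gm16894 and Il1r2: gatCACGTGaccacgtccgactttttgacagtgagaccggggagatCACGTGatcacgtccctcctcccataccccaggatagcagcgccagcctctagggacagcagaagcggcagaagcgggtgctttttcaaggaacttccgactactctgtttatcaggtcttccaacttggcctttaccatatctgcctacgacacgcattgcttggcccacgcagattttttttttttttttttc
The motif occurs 2 times there. Of 32851 promoter windows (250 bases before to 50 after each start), 7.15% held CACGTG and 0.594% held it 2 or more times. Among the 13 windows of the receptor genes the Il1r2 window was the 1 with the motif, and Sigirr had no window in the table. The motif was picked after the sequence had been read, so its presence is a description. RefSeq also places the outer border of the Il1r2 gene within Gm16894, so some Il1r2 transcripts start further upstream.

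The sort labels were checked on their defining genes. Foxp3 ranged from 37270 to 49260 RU in Treg and TFR cells and from 65.5 to 357.8 RU in the others. Il2ra and Lrrc32 split likewise. The Treg markers Ikzf2 and Ctla4 did not, with 10510 and 10810 RU and 7083 and 8995 RU in TFH cells. Treg cells gave 9925 and 11100 RU and 8109 and 10130 RU for them. All 6 TFH markers were called higher in TFH than in naïve cells and in TFR than in Treg cells. Of 5 naïve markers, 4 were called lower in TFH than in naïve cells, with Tcf7 not called (-0.04, limma adjusted p = 0.766). All 5 were called lower in TFR than in Treg cells. Between 18261 and 19867 of 39429 probes were well above background per array, and the number of arrays limits the precision. All d12 samples shared 1 slide, d25 naïve and TFH cells another, and d25 Treg and TFR cells yet another, so day cannot be told apart from slide. At d25 the comparisons of TFR with TFH cells and of Treg with naïve cells therefore also ran between slides, and cell type cannot be told apart from slide there. The arrays of d12 and d25 serve as the 2 samples of each cell type. P-values therefore measure the spread between single pools after a common day shift, by limma with Benjamini-Hochberg adjustment over 15764 genes. The 4 main comparisons share arrays with each other and are not independent.

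**Figure D1:**
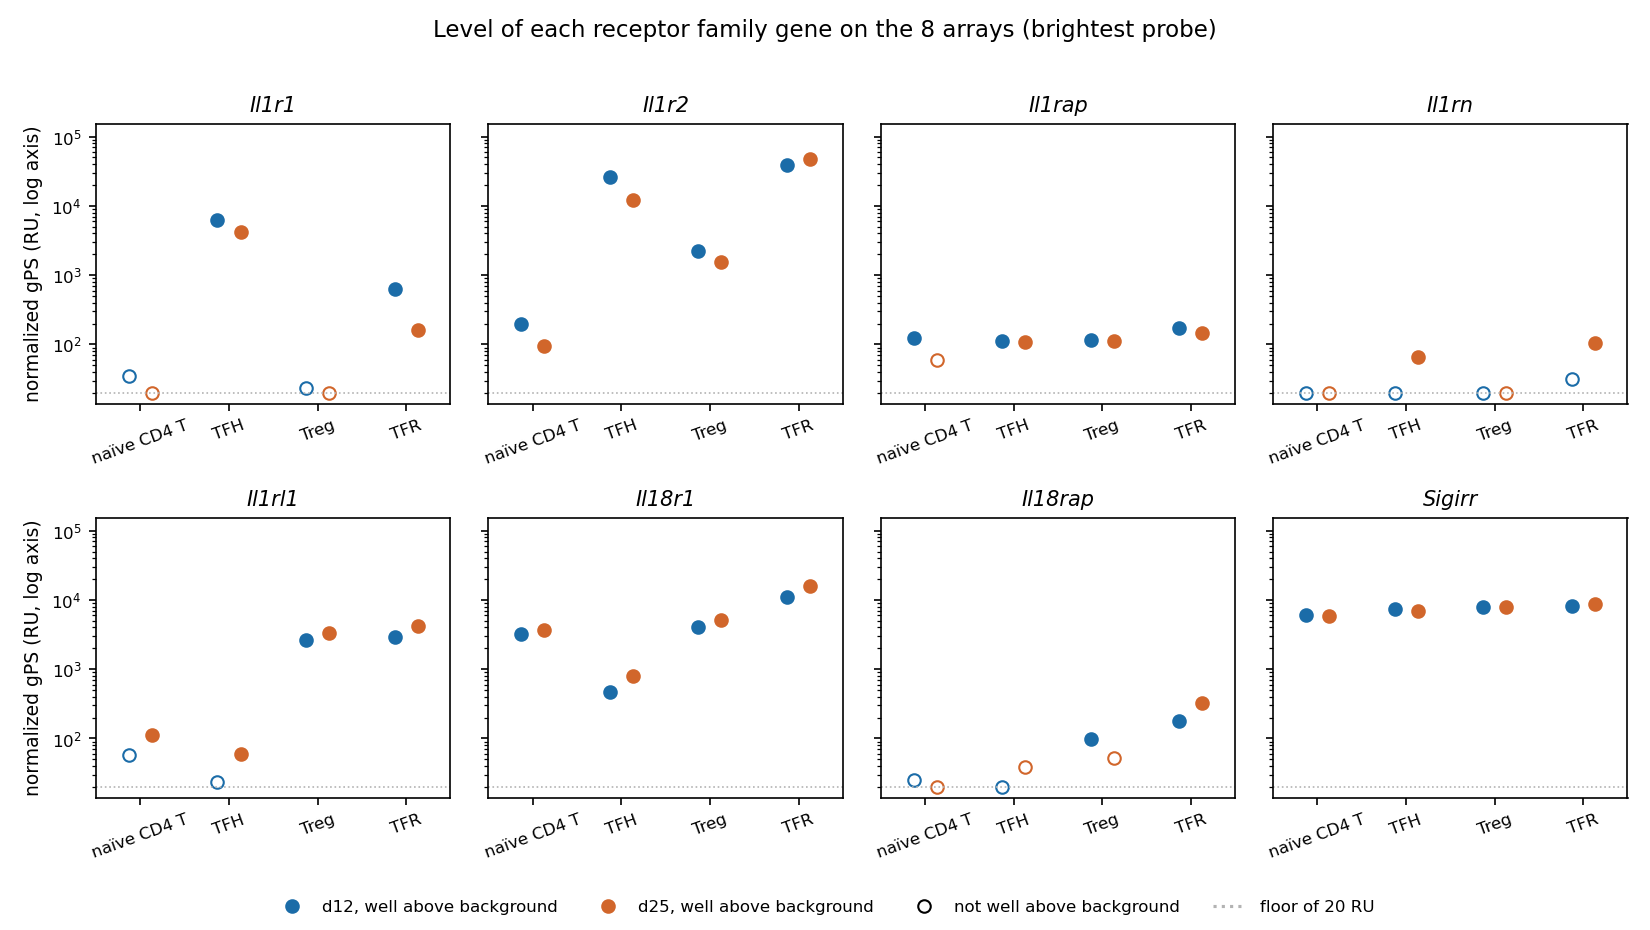
Normalized signal (RU, log axis) of the 8 receptor family genes on each array, by cell type, with d12 in blue and d25 in orange. Open points were not well above background, and the dotted line is the floor of 20 RU. Il1r1 stood high in TFH cells, Il1r2 in TFH and TFR cells, Il1rl1 in Treg and TFR cells, and Il18r1 was lowest in TFH and highest in TFR cells.

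TFH cells had far more Il1r1 and Il1r2 and less Il18r1 and Il1rl1 than naïve CD4 T cells. Of the 7 genes tested, 2 were called higher and 2 lower, where 46.5% of all genes tested were called in this comparison, 20.9% higher and 25.6% lower. TFR cells had more Il1r2, Il1r1 and Il18r1 than Treg cells, 3 of 7 called and all higher, against 39.6% of all genes called and 18.7% called higher. TFR and TFH cells differed in 4 of 7, against a background of 22.1%, with Il1rl1, Il18r1 and Il18rap higher (11.6% of all genes) and Il1r1 lower in TFR cells (10.5%). Treg and naïve cells differed in 2 of 7, Il1rl1 and Il1r2, both higher in Treg cells, with 9.88% of all genes called and 5.89% called higher. The median log2 difference over the 7 genes was 0.33, 1.53, 1.27 and 0.40 in these comparisons, while that of all genes tested was -0.07, -0.08, -0.02 and -0.02. In bulk RNA of a gate, fewer cells with a transcript and less transcript per cell cannot be told apart.

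**Figure D2:**
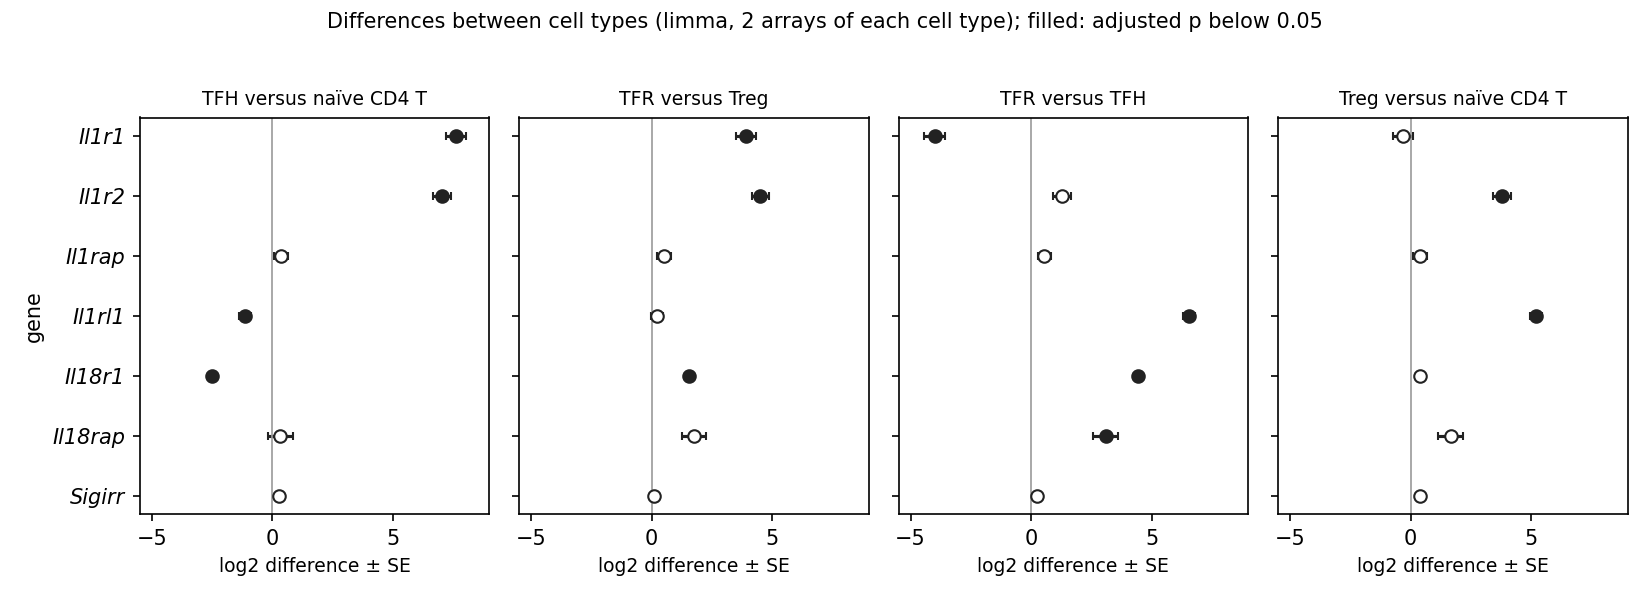
Log2 difference ± SE of the 7 tested receptor family genes in the 4 comparisons between cell types, with 2 arrays of each cell type. Filled points had an adjusted p below 0.05. Il1r1 and Il1r2 lay near 7 on the log2 scale in TFH versus naïve cells, and Il1rl1 and Il18r1 lay furthest right in TFR versus TFH cells.

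Il1r1 encodes the receptor that transmits the IL-1 signal. Its probe (chromosome 1, 40372667 to 40372726, NCBI37) gave 6353 RU at d12 and 4242 RU at d25 in TFH cells and 639 and 163 RU in TFR cells. Naïve cells gave 35.3 and 20 RU and Treg cells 23.1 and 20 RU, none of them well above background. TFH cells were thus highest, TFR cells intermediate without overlap, and the non-follicular populations were at background. Because a dim group gives only a limit, TFH cells had at least 88.9-fold more Il1r1 than naïve cells (fitted log2 difference 7.61 ± 0.43 SE, limma adjusted p = 0.00038), and TFR cells at least 6.09-fold more than Treg cells (3.91 ± 0.43, adjusted p = 0.00362). These limits set the bright mean against the lowest signal that counted as well above background. TFR cells had less than TFH cells (-4.01 ± 0.43, adjusted p = 0.00527), a call that was lost when dim genes were kept in the test (adjusted p = 0.0509). With normexp background correction the fitted differences shrank to 4.86 and 1.45, still called.

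Il1r2 encodes the decoy receptor and showed the highest signal of its probe in TFR cells, with 38935 RU at d12 and 47121 RU at d25. TFH cells gave 26127 and 12004 RU. Treg cells gave 2258 and 1566 RU and naïve cells 197 and 93.7 RU. The 4 cell types did not overlap, in the order TFR, TFH, Treg and naïve, and all 8 arrays were well above background. The rise was 130-fold from naïve to TFH cells (log2 difference 7.03 ± 0.37, adjusted p = 0.000316) and 22.8-fold from Treg to TFR cells (4.51 ± 0.37, adjusted p = 0.00187). Treg cells exceeded naïve cells by 3.79 ± 0.37 (adjusted p = 0.00664), which did not pass without the d12 Treg array (adjusted p = 0.0639), without the d25 Treg array (0.0658) or with dim genes kept in the test (0.0658). The neighbours at the top, TFR and TFH cells, did not differ beyond the threshold (1.27 ± 0.37, adjusted p = 0.0702), although the test passed in 3 of 19 alternatives (adjusted p down to 0.0236), the one without the d12 TFR array among them (1.87, adjusted p = 0.0432).

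The decoy and the signaling receptor of IL-1 moved apart between both follicular populations. At d12, TFR minus TFH was 0.58 on the log2 scale for Il1r2 and -3.31 for Il1r1, so that the difference between both genes shifted by 3.89. At d25, where TFR and TFH cells lay on different slides, it was 1.97 for Il1r2 and -4.70 for Il1r1, a shift of 6.67. TFR cells were thus further towards the decoy at both days, described here without a test. In the Treg to TFR step both genes rose, as they did from naïve to TFH cells.

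Il1rap, the partner chain shared by the IL-1 and IL-33 receptors, was dim and differed little. The brightest of its 3 probes (chromosome 16, 26701498 to 26701557) is assigned to the transcript variant that encodes a soluble form. It gave 124 and 59.9 RU in naïve, 111 and 109 RU in TFH, 115 and 112 RU in Treg and 173 and 148 RU in TFR cells (d12, then d25). Both TFR arrays were the highest, the d25 naïve array was not well above background, and no comparison was called (log2 differences between 0.35 and 0.55, adjusted p from 0.214 to 0.433). Without the d12 naïve array, 3 of them passed, TFH versus naïve cells (0.83, adjusted p = 0.0241), TFR versus Treg cells (0.50, adjusted p = 0.0361) and TFR versus TFH cells (0.55, adjusted p = 0.0465), and without the d25 naïve array the latter 2 passed at the same values. The probe for the membrane-bound variant and a further probe were not well above background on any array. These arrays thus gave no level above background for the membrane-bound chain.

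Il1rn, the secreted antagonist that blocks Il1r1, was well above background on 2 arrays, with 65.3 RU in d25 TFH and 106 RU in d25 TFR cells. The d12 TFR array gave 31.2 RU and the other 5 were at the floor of 20 RU (probe on chromosome 2, 24205094 to 24205153). It was not tested, because no cell type had it above background at both days. Lyz2, a myeloid marker, was at 1248 and 1258 RU on those 2 arrays and between 205.3 and 460.9 RU on the other 6. Itgam went the other way, with 13020 and 13600 RU there and 17090 to 28500 RU on the other 6. S100a8 and S100a9 were above background only on the d25 Treg array, and Csf1r, Csf3r, Cst3 and Fcgr3 did not set those 2 arrays apart. Over the 10 myeloid and neutrophil markers, Cd14 and Adgre1 were not above background on any array, and the summed level spanned 126606 to 159055 RU. The part of such cells in the Il1rn signal was not tested.

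Il1rl1 encodes ST2, the IL-33 receptor, known from tissue Treg cells and type 2 lymphocytes. Here it was high in both Foxp3+ populations and low in both Foxp3- ones. Treg cells gave 2676 and 3376 RU and TFR cells 2915 and 4207 RU (d12, then d25). Naïve cells gave 58.4 and 113 RU and TFH cells 23.4 and 58.9 RU, of which the d25 arrays were above background and the d12 arrays were not. Both Foxp3+ populations were separated from both Foxp3- populations, and among themselves Treg and TFR overlapped. The difference was 5.21 ± 0.26 between Treg and naïve cells (adjusted p = 0.00142) and 6.56 ± 0.26 between TFR and TFH cells (adjusted p = 0.0006), each against a group in which 1 of 2 arrays was not above background. Between TFR and Treg cells it was 0.22 ± 0.26 (adjusted p = 0.533). The lower level of TFH than naïve cells (-1.13 ± 0.26, adjusted p = 0.0215) lay near the background and lost its call in 5 of 18 alternatives, among them without the d12 naïve (adjusted p = 0.0782), the d12 TFH (0.0719) and the d25 naïve array (0.111). Both large differences were smaller but still called with normexp correction (3.73 and 4.26) and with the mean of all 3 probes (1.99 and 2.54).

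The 3 Il1rl1 probes did not agree. The bright one (chromosome 1, 40522187 to 40522246) belongs to transcript variant 1, the membrane receptor, and another probe of the same variant stayed near background throughout. The probe for variant 2, the soluble form, was above background only on the d25 TFR array, at 51.8 RU. In RefSeq the bright probe ends 150 bases before the start of Il18r1, the next gene on that strand. Il1rl1 itself ends 133 bases before that start. Whether Il18r1 transcription had a part in the signal of that probe was not tested. Of the mast cell and basophil genes, which these cells could bring along with ST2, 4 of 7 (Fcer1a, Ms4a2, Mcpt8 and Gata2) were not above background on any array, and Cpa3 was above it only on the d25 Treg array, at 92.9 RU. Kit and Hdc were above it on all 8 arrays. Kit gave 116 and 112 RU in naïve, 485 and 200 RU in TFH, 223 and 298 RU in Treg and 506 and 486 RU in TFR cells, and Hdc ranged from 60.9 to 76.3 RU in Treg and TFR and from 155 to 325 RU in naïve and TFH cells. The summed level of the 7 genes lay between 368 and 419 RU in naïve, 461 and 909 RU in TFH, 396 and 547 RU in Treg and 647 and 679 RU in TFR cells, and their part in the Il1rl1 signal was not tested.

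Il18r1, the IL-18 binding chain, fell in the Foxp3- and rose in the Foxp3+ follicular population. TFH cells had the lowest levels, 466 RU at d12 and 799 RU at d25. Naïve cells gave 3244 and 3687 RU, Treg cells 4030 and 5142 RU, and TFR cells 10863 and 15961 RU. The order was TFR, Treg, naïve and TFH without overlap, with naïve and Treg cells as the pair of neighbours that did not pass the test (0.40 ± 0.16, adjusted p = 0.201). TFH cells fell by 2.50 ± 0.16 on the log2 scale relative to naïve cells (adjusted p = 0.00055), whereas TFR cells rose by 1.53 ± 0.16 above Treg cells (2.89-fold, adjusted p = 0.00335). TFR cells had 21.6-fold more than TFH cells (4.43 ± 0.16, adjusted p = 0.000525). These 3 calls held in all 20 alternatives. In the second probe, whose sequence is printed above and which represents other transcript variants, naïve cells gave 48.8 and 122 RU, TFH cells 27.3 and 20 RU, Treg cells 47.5 and 104 RU, and TFR cells 203 and 297 RU. The same 3 comparisons were called there (-1.72, 1.81 and 3.40, adjusted p = 0.031, 0.0319 and 0.00921). That probe was well above background only on both TFR arrays, the d25 naïve and the d25 Treg array. Its difference of TFH from naïve cells was -0.84 at d12, with neither array above background, and -2.61 at d25.

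Il18rap, the signaling partner of Il18r1, was dim except in TFR cells, with 178 RU at d12 and 322 RU at d25. Treg cells gave 97.8 and 51.8 RU, the latter not above background, and naïve cells (25.1 and 20 RU) and TFH cells (20 and 39.4 RU) were at background. Both TFR arrays thus lay above all others (probe on chromosome 1, 40605729 to 40605788). TFR cells had at least 6.12-fold more than TFH cells (fitted log2 difference 3.09 ± 0.52, adjusted p = 0.0172). The call was lost in 5 of 18 alternatives, without the d12 TFH array (adjusted p = 0.0668), without the d12 TFR (0.076) or the d25 TFR array (0.115), with dim genes kept (0.103) and with slide as a block (0.0758). Against Treg cells the difference was 1.75 ± 0.52 (adjusted p = 0.0502). It missed the threshold narrowly and passed in 7 of 18 alternatives (adjusted p down to 0.0278), the one without the d12 Treg array among them (2.46, adjusted p = 0.0483). TFR cells were the population in which both chains of the IL-18 receptor were above background at both days.

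Sigirr was bright and nearly level, with 6116 and 5944 RU in naïve, 7503 and 7010 RU in TFH, 7901 and 7883 RU in Treg and 8242 and 8697 RU in TFR cells (chromosome 7, 148277090 to 148277149, minus strand). The 8 arrays spanned 0.55 on the log2 scale, compared with 8.97 for Il1r2. Cell types did not overlap, yet none of the 4 comparisons was called. The largest difference was 0.39 ± 0.09 between Treg and naïve cells (adjusted p = 0.0613), followed by 0.27 ± 0.09 between TFH and naïve cells (adjusted p = 0.0594). Both passed in 3 of 19 alternatives (adjusted p down to 0.0238 and 0.0292).

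The interaction term compares the step from Treg to TFR with the step from naïve to TFH cells. It was called for 2 of the 7 genes, where 8.49% of all genes were called, 4.03% with a positive and 4.46% with a negative sign. For Il18r1 it was 4.03 ± 0.23 (adjusted p = 0.00344). For Il1r1 it was -3.70 ± 0.60 (adjusted p = 0.031), with Treg and naïve cells both at background, and this call was lost in 9 of 18 alternatives, among them each single naïve array, each TFH array and each Treg array left out (adjusted p from 0.0735 to 0.112). For Il1r2 it was -2.52 ± 0.52 and did not pass (adjusted p = 0.0548), although it did in 5 of 19 alternatives (adjusted p down to 0.0204), the one without the d25 TFR array among them (-3.11, adjusted p = 0.0464).

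From d12 to d25 0 of the 7 genes were called by limma (adjusted p from 0.0919 to 0.874, with 3 at an unadjusted p under 0.05), and 0.0698% of all genes were. With normexp correction and with a trended, robust prior 1 gene passed each time. Between single arrays the widest difference, d25 minus d12, was -1.97 on the log2 scale for Il1r1 in TFR cells, followed by 1.77 in TFR and 1.71 in TFH cells for Il1rn and 1.33 in TFH cells for Il1rl1. Il1r2 differed by -1.12 in TFH, -1.07 in naïve and 0.28 in TFR cells. These are differences between single pools on different slides and carry no test.

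On chromosome 1 the receptor genes sit next to each other, in the order Il1r2, Il1r1, Il1rl2, Il1rl1, Il18r1 and Il18rap, but they did not move as a block. Il1r2 and Il1r1, at the one end, rose in both follicular populations, Il1rl1 was high in the Foxp3+ populations, and Il18r1 split between TFH and TFR cells. Of 9 other genes with a probe within 500 kb, 7 were not bright enough to be tested, Il1rl2 (the IL-36 receptor) among them. The remaining 2 were Map4k4 and Gm16894. Gm16894, on the minus strand beside Il1r2, was at the floor of 20 RU on both naïve arrays and gave 3129 and 2249 RU in TFH, 439 and 335 RU in Treg and 3362 and 3358 RU in TFR cells. It was at least 45.5-fold higher in TFH than in naïve cells (adjusted p = 8.32e-05), at least 6.57-fold higher in Treg than in naïve cells (adjusted p = 0.000887) and 8.76-fold higher in TFR than in Treg cells (3.13 ± 0.16, adjusted p = 0.000657). TFR and TFH cells did not differ beyond the threshold (0.34, adjusted p = 0.193), as for Il1r2. Map4k4 was lower in TFR than in Treg cells by a small margin (-0.36 ± 0.10, adjusted p = 0.0444), which was lost in 14 of 19 alternatives, each single Treg or TFR array left out included.

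**Figure D3:**
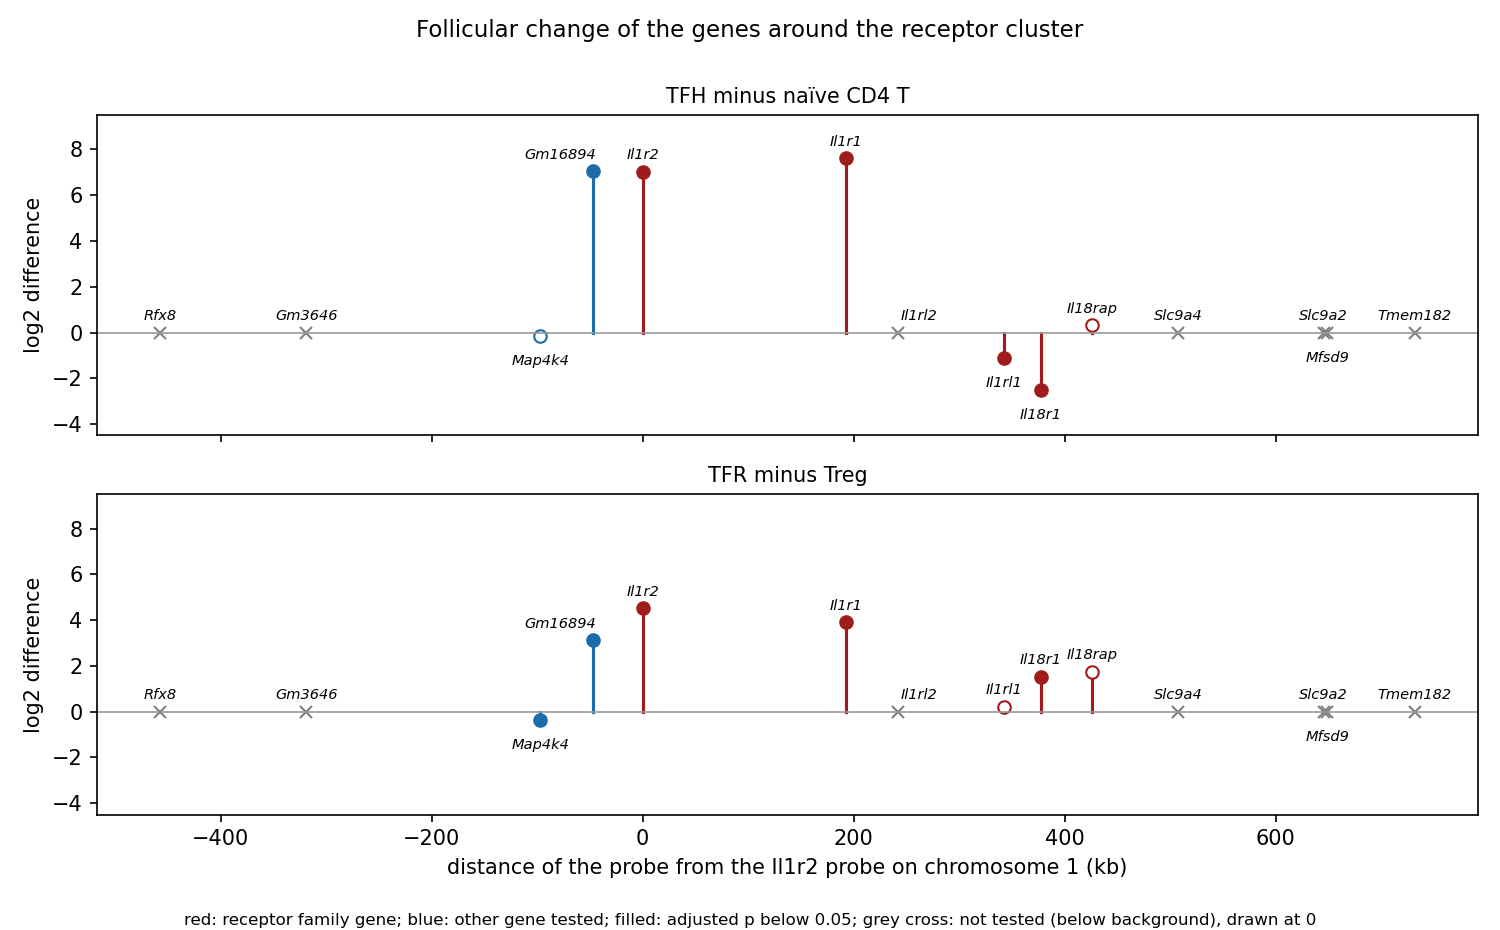
Log2 difference of TFH minus naïve CD4 T cells (top) and TFR minus Treg cells (bottom) for the genes around the receptor cluster, against the distance of each probe from the Il1r2 probe in kb. Red marks receptor family genes, blue other genes tested, filled points an adjusted p below 0.05, and grey crosses drawn at 0 genes that were not tested. Gm16894, Il1r2 and Il1r1 stood out on the left, while Il18r1 fell in the top and rose in the bottom panel. The limma interaction term was called for Il18r1 but not for Il1rl1 or Il18rap (adjusted p = 0.0995 and 0.303).

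Genes most like each member in pattern were ranked by the root mean square (rms) difference of centered log2 values over the 8 arrays, which share cell types and normalization. For Il1r2 these were Tigit (rms 0.41, Pearson r = 0.992), an inhibitory receptor of T cells, the amino acid transporter Slc7a10 (0.59) and Gm16894 (0.60, r = 0.985). For Il1rl1 they were Itgae, the integrin chain CD103 (0.47, r = 0.996), the IL-2 receptor chain Il2ra (0.72) and Socs2 (0.72). For Il18r1 the closest were the riboflavin transporter Slc52a3 (0.29, r = 0.984), Kctd12b (0.32) and the enolase Eno3 (0.49). For Il1r1 they were Pipox (0.68), the keratin Krt81 (0.71) and Smtn (0.74), and for Il18rap, mostly at background, Gp49a, Spag16 and 2610042L04Rik (0.36 to 0.38).

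Ligands, decoys and signaling genes of the pathway were read from lists. Of 9 IL-1 family ligands on the array, Il1a, Il1b, Il33 and 5 others were not well above background in any sample, and Il18 was the 1 tested. Il18 gave 46.4 and 61.8 RU in naïve cells, neither well above background, 224 and 286 RU in TFH, 66.9 and 108 RU in Treg and 592 and 844 RU in TFR cells. Both follicular populations lay above the others, and TFR above TFH cells. Il18 was at least 3.90-fold higher in TFH than in naïve cells (adjusted p = 0.000292), 8.31-fold higher in TFR than in Treg cells (3.06 ± 0.11, adjusted p = 0.000413) and 2.79-fold higher in TFR than in TFH cells (adjusted p = 0.00212). Il18bp, the secreted protein that captures IL-18, ran the other way, with 337 and 389 RU in naïve, 136 and 128 RU in TFH, 592 and 513 RU in Treg and 84.1 and 157 RU in TFR cells. It fell by 2.26 ± 0.29 on the log2 scale in TFR relative to Treg cells (adjusted p = 0.00519). In TFH relative to naïve cells it fell by 1.45 ± 0.29 (adjusted p = 0.0136), a call that was lost in 4 of 19 alternatives, with dim genes kept in the test (adjusted p = 0.0789) and without the d12 naïve array (0.0726), the d25 naïve array (0.0703) or the d25 TFH array (0.0708). TFR cells thus combined the highest Il18, Il18r1 and Il18rap with low Il18bp.

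**Figure D4:**
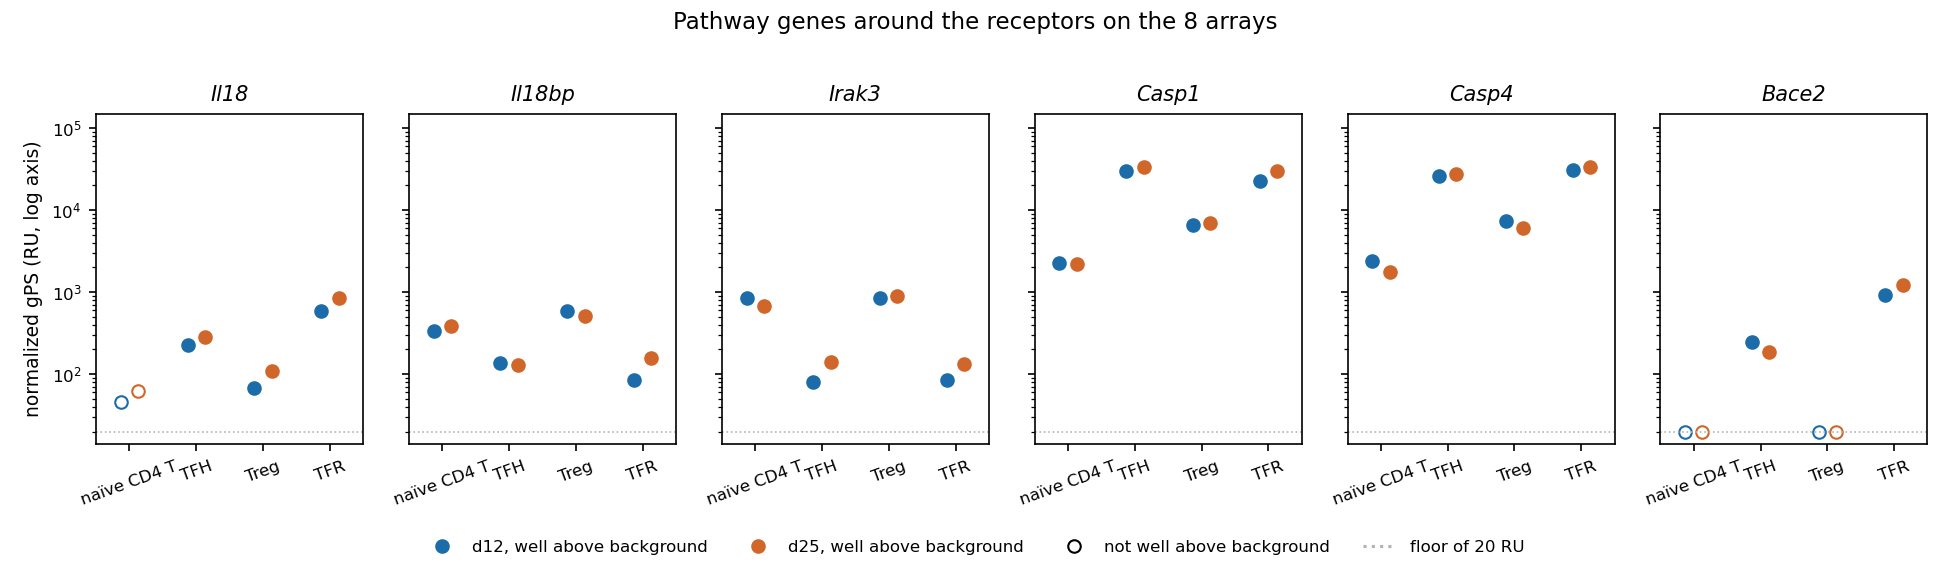
Normalized signal (RU, log axis) of 6 pathway genes on each array, by cell type, with d12 in blue, d25 in orange and open points not well above background. Il18, Casp1, Casp4 and Bace2 were higher and Il18bp and Irak3 lower in TFH and TFR cells than in naïve and Treg cells.

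All 20 genes listed for signaling below the receptors were tested. TFH cells had 5 higher and 5 lower than naïve cells, and TFR cells 3 higher and 7 lower than Treg cells (median log2 difference -0.16 and -0.24, against -0.07 and -0.08 over all genes tested). These 10 of 20 in either comparison stand beside 46.5% (20.9% higher, 25.6% lower) and 39.6% (18.7% higher, 20.9% lower) of all genes called. Irak3, the kinase-dead IRAK that restrains this pathway, showed the widest fall. It gave 850 and 676 RU in naïve, 81.0 and 141 RU in TFH, 850 and 906 RU in Treg and 86.0 and 132 RU in TFR cells. The difference was -2.83 ± 0.29 for the Foxp3- step (adjusted p = 0.00201) and -3.04 ± 0.29 for the Foxp3+ step (adjusted p = 0.00273). Traf6, the ubiquitin ligase after the IRAKs, was lower in TFH than in naïve cells (-1.20 ± 0.17, adjusted p = 0.00498), as was the kinase Ikbkb (-1.06 ± 0.14, adjusted p = 0.0039). Ube2n and Ube2v1, which encode the paired ubiquitin-conjugating factors that work with Traf6, were higher there (0.85 and 0.75, adjusted p = 0.00596 and 0.00375). Traf6, Ikbkb, Ube2n and Ube2v1 moved in the same direction from Treg to TFR cells (-0.82, -0.84, 0.73 and 0.55, adjusted p = 0.0187, 0.0102, 0.0118 and 0.012). Each of these calls was lost in some alternatives. In TFR relative to Treg cells Nfkbiz, an IL-1-induced nuclear IkB protein, was lower (-1.27 ± 0.13, adjusted p = 0.00337). Peli2, a Pellino ubiquitin ligase, was above background in Treg (191 and 173 RU) and TFR cells (135 and 256 RU) and at the floor in naïve and TFH cells, so it was high in the same cell types as Il1rl1. It was at least 5.41-fold higher in TFR than in TFH cells (adjusted p = 0.00314). The adaptor Myd88 stayed between 14480 and 19300 RU and was called in none of the 4 comparisons.

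Of 7 genes for ligand processing, Nlrp3 and Nlrc4 were not above background, and 5 were tested. Casp1, the protease that matures IL-1beta and IL-18, gave 2241 and 2222 RU in naïve, 29700 and 33970 RU in TFH, 6521 and 6951 RU in Treg and 22570 and 29650 RU in TFR cells. It rose 14.2-fold in TFH (adjusted p = 0.000144) and 3.84-fold in TFR cells (adjusted p = 0.00105). Casp4 rose with it, 13.2-fold and 4.87-fold (adjusted p = 0.000268 and 0.00166). The list as a whole had 3 higher and 2 lower in TFH versus naïve cells and 2 higher in TFR versus Treg cells, beside 46.5% and 39.6% of all genes called. Of 5 genes listed around receptor shedding, Bace2, an aspartyl protease, was at the floor in naïve and Treg cells and gave 244 and 186 RU in TFH and 926 and 1217 RU in TFR cells, at least 3.65-fold higher in TFH than in naïve cells (adjusted p = 0.000383) and at least 20-fold higher in TFR than in Treg cells (adjusted p = 0.000371). TFR exceeded TFH cells by 2.32 ± 0.19 (adjusted p = 0.00275). The shedding list had 2 higher and 0 lower in TFH versus naïve cells, beside 46.5% of all genes called (20.9% higher). TFR versus Treg cells also had 2 higher, beside 39.6% (18.7% higher), and TFR versus TFH cells 1, beside 22.1%. Apart from Bace2, Adam10 was higher in TFH than in naïve cells (0.58, adjusted p = 0.014), a call that was lost in 4 of 19 alternatives. Bace1 was higher in TFR than in Treg cells (1.16, adjusted p = 0.0169), the latter not above background, and lost this call in 5 of 18 alternatives. It gave 105.5 and 79.85 RU in TFR cells and 78.5 and 86.98 RU in naïve cells, where it was not above background either. Adam17 and Ern1 were called in no comparison between cell types.

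B cell markers were uneven among the TFH arrays. The 7 B cell genes summed to 17661 RU on the d25 TFH array and to 5907 to 10257 RU on the other 7, with Ms4a1 at 2738 RU and Cd79a at 1822 RU, while Pax5 was not above background on any array. Il1r1 and Il1r2 were lower on that array than on the d12 TFH array. Without the d25 TFH array the differences of TFH from naïve cells were 7.40 for Il1r1 and 7.37 for Il1r2, and that of Il18r1 was -2.71, all still called. Among natural killer and CD8 T cell markers Klrb1c was higher in TFH (1484 and 3077 RU) and TFR cells (820.4 and 752 RU) than in naïve and Treg cells (35.0 to 161.9 RU). Ncr1 was not above background, and Eomes gave 303.3 RU at d12 and 1405 RU at d25 in TFH cells. The sum over the 7 genes was lower in TFH and TFR cells (5527 to 10674 RU) than in naïve cells (16813 and 19847 RU). Treg cells lay between or within these ranges, at 11669 RU at d12 and 9576 RU at d25. The part of natural killer and CD8 T cells in the Il18r1 differences was not tested.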

How the data were processed

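Processed signal intensities (gProcessedSignal) of 8 single-color Agilent arrays were used as deposited by the authors, who extracted them with Feature Extraction 10.7.3.1, as the submitters' processing notes name it. The authors' own normalized table of the same arrays, also on the intensity scale, served as an alternative. Following the study's methods, spots flagged as outliers, outside 1.42 times the interquartile range of the 4 spots of a probe, or with a pixel CV over 0.5 were left out. The remaining spots were averaged geometrically, quantile normalized, scaled to a 75th percentile of 1500 and floored at 20. Between 86.5% and 89.2% of spots were kept per array. A gene was its probe with the highest mean, and it entered the test if, in at least 1 cell type, that probe exceeded background clearly at both days.

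Log2 values were fitted with limma 3.58.1 in R 4.3.3, with additive terms for cell type and for day (3 residual degrees of freedom), and called at an adjusted p below 0.05 (Benjamini-Hochberg over 15764 genes). The procedure was tested on simulated data. With 1 array per cell type and day, no test within a day was possible. The members and gene lists were chosen with earlier results of these data known. All members are named, dim ones included, as are the 3 genes closest in centered pattern to each member spanning at least 2 log2 units. Other list genes could be named if they were well above background on at least 1 array. Those given, and the neighbours given among the genes with a probe within 500 kb of a member on chromosome 1, are a selection made after their values were seen. The rest of the neighbours and of the ligand, signaling, processing and shedding lists stand in the counts. Of 13 member probes, 12 had their transcript in the RefSeq table, all under the same symbol. Promoter sequences are from RefSeq (GRCm38.p6). The array positions are in NCBI37, and no annotation of that build was used. In 19 kinds of alternative, normalization, background correction, spot exclusion, floor, filter, probe choice, model terms, prior and each array in turn were changed.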

Additional observations from a re-analysis of the deposited data

Results flagged for a closer look

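Il18r1 is given because the step from Treg to TFR cells and the step from naïve CD4 T to TFH cells differed by the test of the difference itself. The step was 1.53 in Foxp3+ and -2.50 in Foxp3- cells on the log2 scale, and the interaction was 4.03 ± 0.23 (limma adjusted p = 0.00344). In all 20 alternatives it stayed between 3.53 and 4.24 and was called, the second probe included.

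Il1r1 is given for the same reason, although both of its steps ran in the same direction. The step was 3.91 in Foxp3+ and 7.61 in Foxp3- cells, with an interaction of -3.70 ± 0.60 (adjusted p = 0.031). Both starting populations were at background, so both steps are measured as limits. In 18 alternatives the value lay between -4.41 and -2.99, and 9 of them lost the call (adjusted p up to 0.155).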

How the results depend on the processing

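Of 766 values of the receptor genes under the alternatives, 697 kept their direction and side of the threshold, 23 lost a call, 30 gained one and 16 turned their direction. No value that was called reversed. Over the other named genes, 827 of 1026 values were unchanged in call and 199 lost it, none in the opposite direction.

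With dim genes kept in the test, the receptor genes called fell to 2 in TFR versus TFH cells, 1 in Treg versus naïve cells and 1 in the interaction, and the genes called in all to 3870 in TFR versus Treg cells, 1649, 702 and 418. With genes above background on all 8 arrays, 3 receptor genes were left and 1 was called in TFR versus TFH cells. Without a day term 2213 genes were called in TFR versus TFH cells, 1000 in Treg versus naïve cells and 807 in the interaction (1 receptor gene). With slide as a block these were 1349, 523 and 691. Genes called between d25 and d12 (11) numbered 28 with scaling alone, 855 with normexp (1 receptor gene), 6 with no spot excluded, 1 with no floor, 797 above background on all arrays, 0 with the mean of all probes and 1250 with a trended, robust prior (1 receptor gene). The cause of these changes was not tested, except that fewer or more genes enter under the filters. Normexp adds an offset of 50, which by construction shrinks differences of dim genes such as Il1r1, Il18, Gm16894 and Bace2.

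Leaving out 1 array at a time gave 3 to 4 receptor genes called in TFH versus naïve cells, 3 to 4 in TFR versus Treg, 3 to 5 in TFR versus TFH, 1 to 2 in Treg versus naïve cells, 1 to 3 in the interaction and 0 between days. All genes called ranged from 4309 (without naïve d12) to 6478, 2494 (without TFR d25) to 6731, 942 (without TFR d12) to 2915, 416 (without Treg d12) to 1865, 292 (without Treg d12) to 1096, and 0 to 0. The lone remaining array of a cell type is then assumed to vary like the others. Directions turned for uncalled differences near 0: Il1rap in TFH versus naïve (-0.13 to 0.83), Treg versus naïve (-0.080 to 0.88) and the interaction (-0.33 to 0.63), Il18rap in TFH versus naïve (-0.23 to 0.88) and between days (-0.13 to 0.50, and -0.026 with no spot excluded), Il1r1 in Treg versus naïve (-0.76 to 0.15), Il1rl1 in TFR versus Treg (-0.080 to 0.52) and Sigirr between days (-0.047 to 0.011). With its second probe Il18r1 was -0.13 in Treg versus naïve cells. The other probes of Il1rap and Il1rl1 were too dim to give a value.

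The labels give no replicate numbers to pair samples by. Day is a term of the fit, so cell types are compared within d12 and within d25, and the values without that term and with slide as a block are given above. Signal near background limits Il18rap, Il1rap and Il1rn throughout, and Il1r1 and Il1rl1 in the populations where they are low.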
